A study of Macaca mulatta with 8 samples.

Results

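The genes described here are the ZNF genes, whose symbols begin with ZNF followed by a digit and whose proteins mostly carry DNA-binding zinc fingers. They were chosen by symbol from the table of gene expression of the study, which itself holds only genes past a minimum level in some stage, and a symbol with several rows was taken by its row of highest mean. The table held 233 such symbols in 240 rows, of 12460 gene symbols in all. The deposited descriptions call 208 of them zinc finger proteins and 23 uncharacterized proteins. The other 2, counted apart, are ZNF48, described as uncharacterized too but C9orf40-like, and ZNF828, known in human as the spindle protein CHAMP1. A rhesus gene table of a later assembly, T2T-MMU8v2.0, lists 418 ZNF symbols and matched 205 of the 233 members by symbol or synonym. Rhesus ZNF genes that the deposited table gives only under other symbols are not members.

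The study followed the wild-type rhesus monkey (Macaca mulatta) embryonic stem cell line IVF3.2 through neural differentiation, with poly-A mRNA sequenced at 4 stages. Undifferentiated cells on mouse embryonic fibroblast feeders were the ESC stage. R-NSCP1 were neural rosettes picked by hand at passage 1 from cultures with SHH at 200 ng/mL, FGF8, BDNF and ascorbic acid. R-NSCP6 were all cells of the dish at passage 6, when rosettes had been lost, after growth with SHH at 500 ng/mL, Dll4, Jagged-1, BDNF and ascorbic acid. NPC were neural progenitor cells kept for at least 100 days in FGF2, EGF, BDNF and ascorbic acid. All 4 stages come from the same line, and each was 1 library made from cells pooled over many repeats. Stage therefore cannot be told apart from medium, time in culture or the way cells were collected, the spread between cultures is unknown, and no test between stages was possible.

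ZNF proteins of the C2H2 type fold a short stretch of residues around a zinc ion and read DNA through a row of such fingers. Many primate members add a KRAB domain, which binds the co-repressor TRIM28 and through it the histone methyltransferase SETDB1, and their best known role is to silence transposable elements in early development. Others carry a SCAN or BTB domain for pairing with other proteins, or no such domain, and serve as activators, repressors or RNA-binding proteins. By the domains of the human proteins, 135 members carry KRAB (11 of them with SCAN), 92 do not, and 6 were left unsure. This division was written by hand after the values had been seen.

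Levels are in FPKM, the number of fragments mapped to a gene, scaled for the length of its exons and for the mapped fragments of the library. The table lists genes that reached about 3 FPKM in at least 1 stage, so no member was low throughout, and genes low in every stage were not analysed here. Read counts per gene were not used here. The ESC and NPC libraries carried the marks of their labels. All 6 ESC markers, among them POU5F1 and NANOG, were prevalent in ESC, and all 6 astroglial markers, among them GFAP and AQP4, in NPC. Of 6 listed neural stem cell markers, 5 had a row, and none was prevalent in R-NSCP1 or R-NSCP6. Their medians were 0.879, 67.8, 125 and 53.6 FPKM from ESC to NPC. SOX9 was prevalent in NPC, and SOX2 was at 113, 125, 159 and 296 FPKM. Markers of other cells also moved between stages. Of 13 listed neuron markers, 11 had a row, and these summed to 64.8, 213, 407 and 465 FPKM from ESC to NPC. Their medians were 0.976, 8.16, 15.8 and 8.08 FPKM, and NPC fell short of R-NSCP6 by 2-fold or more in 5 of the 11. Of 6 listed choroid plexus markers, the 3 with a row summed to 0.0481, 490, 175 and 0.536 FPKM, with TTR listed at 0 in ESC and NPC. Of 10 listed fibroblast markers, the 9 with a row summed to 67.2, 74.2, 36.8 and 40.8 FPKM. Total FPKM was 999473, 491243, 783251 and 508708 from ESC to NPC, so scaling by the total changes many comparisons. The row of highest level made up 20.6%, 3.99%, 15.4% and 9.33% of these totals.

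ZNF genes were expressed at low levels in every stage. From ESC through R-NSCP1 and R-NSCP6 to NPC their median was 4.84, 6.27, 5.69 and 4.84 FPKM, beside 9.97, 10.8, 10.8 and 10.1 FPKM over all symbols. All 233 together made up 0.179%, 0.419%, 0.263% and 0.291% of the FPKM total in the same order. With a level of at least 3 FPKM counted, 169 members were expressed in ESC (72.5%, beside 78.4% of all symbols) and 203 in R-NSCP1 (87.1%, beside 85.5%). The number was 174 for R-NSCP6 (74.7%, beside 83.6%) and 169 for NPC (72.5%, beside 83.2%). Of the members, 120 (51.5%) reached 3 FPKM in all 4 stages, beside 65.5% of all symbols. The share was 42.2% of the KRAB members and 65.2% of those without KRAB. KRAB members had medians of 4.34, 5.18, 4.09 and 3.53 FPKM from ESC to NPC, and members without KRAB 5.50, 8.76, 8.75 and 5.80 FPKM. Members without KRAB were thus higher at the median in each of the 4 libraries.

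**Figure D1:**
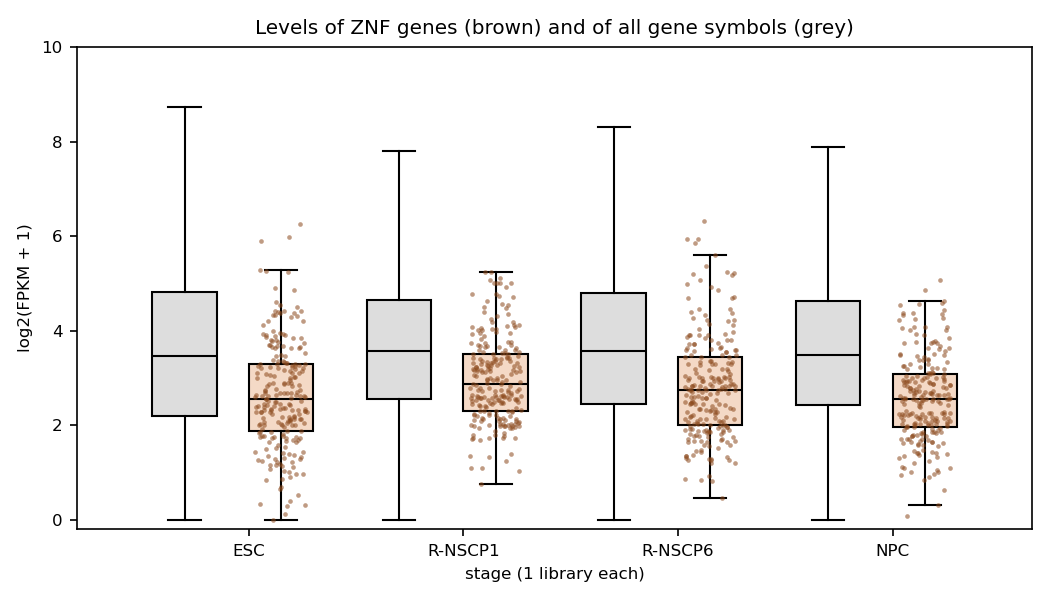
Level of each ZNF gene (brown points and boxes) and of all gene symbols (grey boxes) on log2(FPKM + 1), by stage, with 1 library per stage. Boxes span the quartiles with the median as a line, and whiskers reach the last value within 1.5 times the box height. The ZNF boxes lie below the grey ones in all 4 stages, with medians of 4.84 to 6.27 FPKM against 9.97 to 10.8 FPKM.

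The most abundant members were all without KRAB. ZNF146, a protein made almost only of zinc fingers, was at 58.1, 36.7, 60.3 and 28.2 FPKM from ESC through R-NSCP1 and R-NSCP6 to NPC. Its mean of 45.8 FPKM was higher than that of 85.7% of all symbols. ZNF146 has a second row that reads 25.3 FPKM in ESC and the same values elsewhere, so its ESC level is uncertain. ZNF770 came next, at 75.8, 33.7, 29.1 and 20.7 FPKM in the same order, with its highest value in ESC. ZNF219 was at 12.8, 31.2, 78.4 and 14.3 FPKM, with its highest value in R-NSCP6. ZNF532 was at 37.2, 36.8, 35.5 and 22.2 FPKM, nearly level until NPC. ZNF326, part of a complex that couples transcription to splicing, was at 37.9, 32.6, 35.2 and 23.9 FPKM. ZNF512 was at 20.1, 31.3, 40.2 and 22.8 FPKM. The order of these abundant genes differed between stages, with ZNF770 above the others in ESC and ZNF219 above them in R-NSCP6.

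The median ZNF gene varied less across the 4 stages than the median symbol. The median distance between a member's highest and lowest stage was 1.06 on log2(FPKM + 1), beside 1.40 over all symbols. The distance was also smaller when members were set beside symbols of like level. For a mean FPKM under 5 it was 1.06 in 105 members and 1.74 in all symbols of that level. Between 5 and 10 FPKM it was 1.00 in 76 members beside 1.33, and between 10 and 20 FPKM it was 1.04 in 35 members beside 1.30. From 20 FPKM up it was 1.27 in 17 members beside 1.30, so the most abundant members differed little from other genes in this respect. By the rule of prevalence given next, 29.4% of these 17 were prevalent in a stage, beside 21% of all symbols of that level, whereas in the 3 lower bins the members' share was below that of all symbols. ZNF181, a KRAB protein, was the most even member at 18.5, 21.4, 21.1 and 19.8 FPKM from ESC to NPC, a ratio of 1.16 between highest and lowest. ZNF434, a SCAN protein, read 4.03, 3.95, 4.71 and 4.69 FPKM, and ZNF528, a KRAB protein, 12.7, 16.1, 13.99 and 15.2 FPKM. The ratios of ZNF434 and ZNF528 were 1.19 and 1.27.

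A gene was called prevalent in a stage when it reached at least 3 FPKM there and at least 2 times the second highest stage. By this rule 34 members (14.6%) were prevalent in some stage, beside 25.4% of all symbols. ESC had 14 of them (6.01%, beside 9.21% of all symbols) and R-NSCP1 had 3 (1.29%, beside 2.04%). R-NSCP6 had 14 (6.01%, beside 7.58%) and NPC 3 (1.29%, beside 6.55%). In the deposited values the shares were below those of all symbols in all 4 stages. KRAB members made up 11 of the 14 in ESC and 4 of the 14 in R-NSCP6. As a share of the class, prevalence in ESC was 8.15% with KRAB and 3.26% without, both below the 9.21% of all symbols. In R-NSCP6 it was 2.96% with KRAB and 10.9% without, beside 7.58%. These counts depend on scaling: with FPKM divided by the library total, the rule left 3 prevalent members for ESC, 16 for R-NSCP1 and 1 for R-NSCP6, and the share in R-NSCP1 was then 6.87%, above the 5.39% of all symbols. Upper-quartile scaling left 9 prevalent in ESC, and median-of-ratios scaling left 1 in R-NSCP1, both without a share of all symbols to set beside them.

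**Figure D2:**
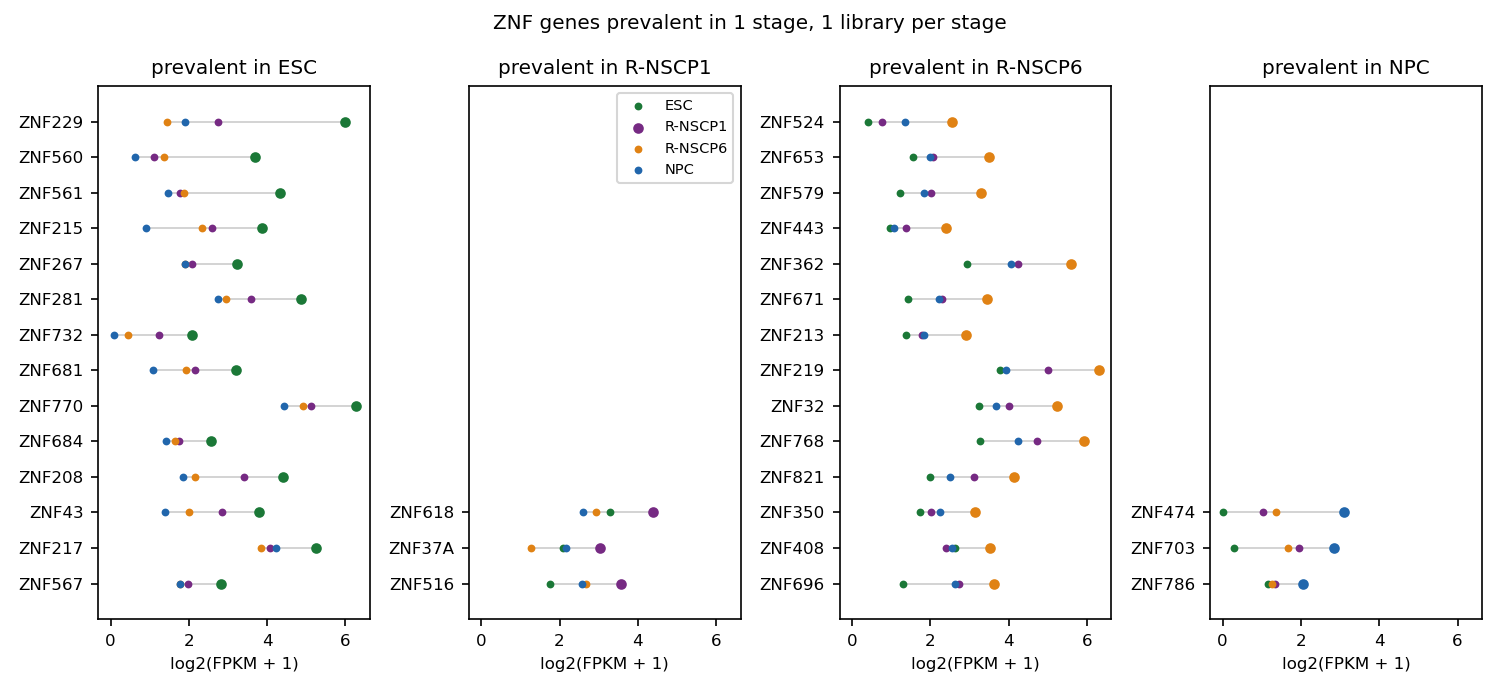
Levels of the 34 ZNF genes prevalent in 1 stage, on log2(FPKM + 1), in 1 panel per stage of prevalence. Each row is a gene, the 4 coloured points are its 4 libraries, the larger point is the stage of prevalence, and the grey line spans lowest to highest. ESC and R-NSCP6 hold 14 genes each and R-NSCP1 and NPC 3 each, and ZNF229 stands furthest from its other stages.

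By stage of highest level, with no minimum distance, 62 members (26.6%, beside 32.5% of all symbols) were highest in ESC and 70 (30%, beside 16.8%) in R-NSCP1. A further 77 (33%, beside 29.9%) were highest in R-NSCP6 and 24 (10.3%, beside 20.8%) in NPC. The KRAB members were spread evenly, with 41 highest in each of ESC, R-NSCP1 and R-NSCP6 and 12 in NPC. Of the 92 members without KRAB, 36 peaked at R-NSCP6, 27 at R-NSCP1, 18 at ESC and 11 at NPC. Levels that stepped down from ESC through R-NSCP1 and R-NSCP6 to NPC were seen in 30 members (12.9%, beside 10% of all symbols), and with library-total scaling in 5 (2.15%, beside 3.1%). Levels that stepped up throughout were seen in 6 (2.58%, beside 6.13%), namely ZNF16, ZNF174, ZNF222, ZNF226, ZNF474 and ZNF655. Of these 6, ZNF474 and ZNF655 reached the highest NPC values, 7.59 FPKM and 15.6 FPKM.

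ZNF229 was the member with the sharpest preference for ESC. This KRAB gene was at 62.2, 5.68, 1.70 and 2.77 FPKM from ESC to NPC, an 11.0-fold distance to the next stage. ZNF560, also of the KRAB type, was at 11.97, 1.15, 1.58 and 0.537 FPKM, a 7.57-fold distance. ZNF229 and ZNF560 were also prevalent in ESC under a 4-fold rule. ZNF561 was the third such gene by its highest row, at 19.3, 2.44, 2.65 and 1.76 FPKM, but its second row reads 3.35 FPKM in ESC and is not prevalent.

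The remaining ESC-prevalent genes stood closer to their next stage, by 2.05-fold to 2.71-fold. ZNF215, a KRAB and SCAN gene that is imprinted in human, was at 13.5, 4.98, 4.05 and 0.859 FPKM. ZNF267, a KRAB gene, was at 8.37, 3.21, 2.72 and 2.72 FPKM. ZNF281, which binds promoters of pluripotency genes in mouse ESCs, was at 28.02, 11.1, 6.69 and 5.73 FPKM. ZNF215 and ZNF281 read lower at each later stage, and ZNF267 was level between R-NSCP6 and NPC. The others were the KRAB genes ZNF732, ZNF681, ZNF684, ZNF208, ZNF43 and ZNF567, with ZNF770 and ZNF217. Dividing by the library total left ZNF229, ZNF560 and ZNF561 prevalent in ESC and none of these other 11 genes.

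The 8 listed ZNF91 subfamily genes with a row stepped down from ESC to NPC in the deposited values. With library-total scaling 2 of them kept this order. In human these are KRAB genes that expanded in primates, most of them in a cluster on chromosome 19, and some silence retrotransposons, as ZNF93 does for a class of LINE-1 elements. The list held 26 genes and was written by hand with earlier results of these data known, so the counts hold for the listed genes only. The KRAB genes ZNF429 and ZNF92, not on the list, did not step down throughout. Of all symbols, 10% were lower at every following stage. By the highest row of ZNF208, all 8 listed genes with a row were highest in ESC, as were 32.5% of all symbols, and lower at every following stage. Their summed level was 94.6, 54.3, 25.8 and 18.4 FPKM from ESC to NPC. The median difference of NPC from ESC was −2.01 on log2(FPKM + 1), beside −0.07 for all symbols. At least 2-fold lower in NPC were 7 of the 8, beside 22.2% of all symbols. With library-total scaling 5 of the 8 were, beside 8.85% of all symbols. These genes differ little in sequence, so their reads may have been shared between them and with relatives, and they are not 8 independent observations.

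ZNF708 was the most abundant of the 8, at 22.1, 11.8, 4.11 and 3.27 FPKM from ESC to NPC. ZNF208 was at 20.2, 9.62, 3.45 and 2.63 FPKM by its highest row. Its other rows read 13.2 and 1.33 FPKM in ESC, and by the last of them ZNF208 would be prevalent in R-NSCP1 and not in ESC. ZNF43 was at 12.9, 6.19, 2.98 and 1.63 FPKM, ZNF431 at 9.41, 6.27, 2.997 and 2.61 FPKM. ZNF93 was at 7.45, 6.70, 4.49 and 2.52 FPKM and ZNF430 at 6.41, 5.58, 3.60 and 3.23 FPKM, the smallest differences of the 8. ZNF85 and ZNF681 were at 7.92 and 8.14 FPKM in ESC and at 1.37 and 1.12 FPKM in NPC. All 8 were lower in NPC than in ESC under each of the 3 other scalings. The stepwise order was kept by 6 of the 8 with upper-quartile or median-of-ratios scaling and by 2 with library-total scaling, where the median difference of R-NSCP1 from ESC was 0.17.

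**Figure D3:**
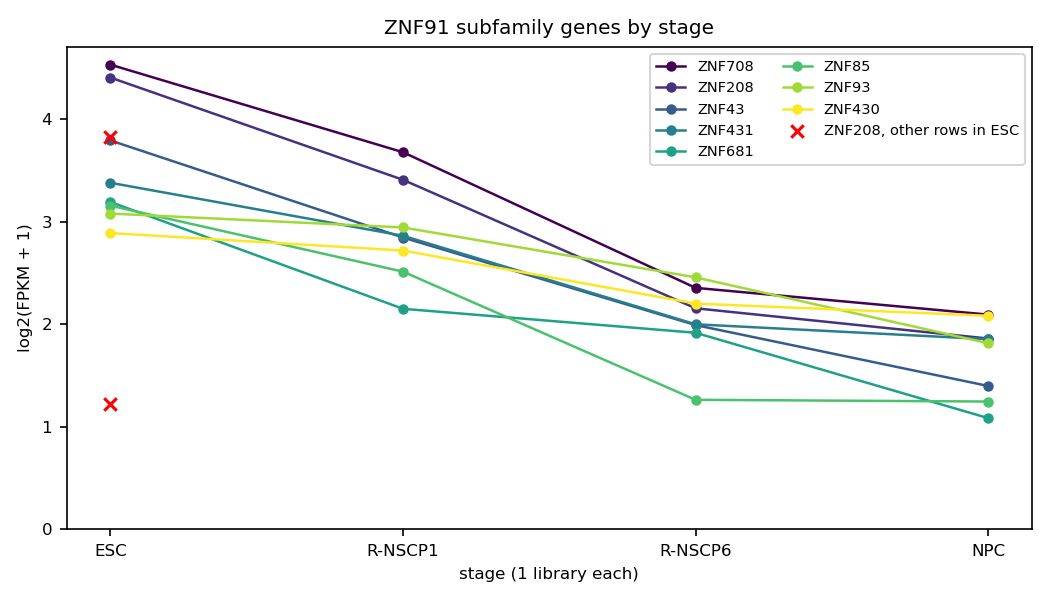
Level of the 8 listed ZNF91 subfamily genes with a row, on log2(FPKM + 1), across the 4 stages with 1 library each. Lines join the stages of a gene, and crosses mark the other 2 ESC values deposited for ZNF208, 13.2 FPKM and 1.33 FPKM. All 8 lines run downward from ESC to NPC, and their sum goes from 94.6 FPKM to 18.4 FPKM.

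KRAB genes outside the list, ZNF429 and ZNF92 among them, chosen after their values were seen, took the same or another course. ZNF141 was at 14.5, 10.6, 2.75 and 0.962 FPKM and ZNF678 at 14.8, 9.17, 2.96 and 1.65 FPKM, both stepping down throughout. ZNF429 was at 7.90, 6.91, 1.42 and 1.94 FPKM, lower in the later stages with its lowest value in R-NSCP6. ZNF92 was at 20.4, 14.7, 24.7 and 13.9 FPKM, with its highest value in R-NSCP6. ZNF662 was at 5.36, 8.92, 0.826 and 0.244 FPKM, present in ESC and R-NSCP1 and below 1 FPKM later. ZNF195 was at 19.6, 16.5, 18.4 and 5.36 FPKM, lower only in NPC.

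In R-NSCP1, the hand-picked rosettes, 3 members were prevalent. ZNF618 was at 8.82, 20.1, 6.59 and 5.01 FPKM from ESC to NPC. ZNF516, a partner of the CtBP co-repressor, was at 2.40, 11.0, 5.43 and 4.99 FPKM. ZNF37A, a KRAB gene, was at 3.28, 7.16, 1.41 and 3.45 FPKM and was the only member with its lowest value set apart in R-NSCP6. Their distances to the next stage were 2.28-fold, 2.02-fold and 2.07-fold, close to the 2-fold limit, and under median-of-ratios scaling ZNF516 and ZNF37A fell short of it at 1.95 and 1.84. ZNF192, a KRAB and SCAN gene, was at 3.36, 15.2, 3.05 and 8.11 FPKM, highest in the rosettes without meeting the rule.

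In R-NSCP6, 10 of the 14 prevalent members were without KRAB. ZNF219, a partner of SOX9 in mouse cartilage, was prevalent there at 78.4 FPKM, 2.51-fold above R-NSCP1. ZNF362 was at 6.71, 17.9, 47.3 and 15.8 FPKM from ESC to NPC. ZNF768 was at 8.67, 25.7, 60.0 and 18.0 FPKM. These abundant genes were lowest in ESC and in between in R-NSCP1 and NPC, and their highest value in R-NSCP6 was set by the rule. This was not particular to abundant genes. ZNF524, ZNF653, ZNF579, ZNF443, ZNF671 and ZNF213, given next, were also lowest in ESC, while ZNF408 was lowest in R-NSCP1.

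Lower in abundance were ZNF524 at 0.318, 0.694, 4.92 and 1.55 FPKM and ZNF653 at 1.97, 3.23, 10.3 and 2.997 FPKM. ZNF579 was at 1.35, 3.05, 8.75 and 2.61 FPKM. The KRAB genes were ZNF443 at 0.954, 1.60, 4.27 and 1.12 FPKM, ZNF671 at 1.68, 3.91, 9.94 and 3.69 FPKM and ZNF213, which also has SCAN, at 1.60, 2.48, 6.49 and 2.57 FPKM. ZNF32, ZNF821, ZNF350, ZNF408 and ZNF696 completed the 14, and no member was set apart in R-NSCP6 by 4-fold or more. R-NSCP6 is also the stage where the neuron markers TBR1, NEUROD2 and NEUROD6 were prevalent, at 41.9, 7.11 and 32.0 FPKM, and where the whole dish was collected, and their part in the result was not tested. Of the other neuron markers, DCX and NEFM were prevalent in R-NSCP1 and NEFL and MAP2 in NPC, and DCX and NEFM went from 27.7 and 29.5 FPKM in R-NSCP1 to 4.50 and 9.54 FPKM in R-NSCP6.

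In NPC, 3 members were prevalent. ZNF474 was listed at 0 in ESC and was at 1.05, 1.56 and 7.59 FPKM in the 3 neural stages. ZNF703, a repressor of the NLZ family, was at 0.226, 2.85, 2.18 and 6.16 FPKM. ZNF786, a KRAB gene, was at 1.24, 1.52, 1.41 and 3.17 FPKM. All 3 were below 10 FPKM in every stage. The 6 astroglial markers summed to 10.6, 411, 523 and 2955 FPKM from ESC to NPC, and their part in the result was not tested. FABP7 made up 385 and 492 FPKM of the sums in the R-NSC stages, and the medians of the 6 were 1.42, 0.920, 1.93 and 251 FPKM.

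Members low in ESC and present in all neural stages were about as frequent as such genes in the whole table. With each other stage at 3 FPKM or more and at least 2 times ESC, 20 members were called (8.58%, beside 8.74% of all symbols), 10 with KRAB and 10 without. The number was 56 (24%, beside 20.5%) with library-total scaling. It was 5 with a minimum of 10 FPKM and 4 with a fold of 4, with no share of all symbols to set beside these. ZNF436, a KRAB gene, was at 0.253 FPKM in ESC and at 12.3, 17.6 and 16.0 FPKM in R-NSCP1, R-NSCP6 and NPC, a 48.8-fold distance between ESC and R-NSCP1. ZNF25, also with KRAB, was at 0.565, 5.10, 9.17 and 8.47 FPKM. ZNF628 was at 1.34, 9.63, 32.5 and 18.1 FPKM. ZNF395, known in human as a hypoxia-responsive factor, was at 2.40, 15.6, 6.84 and 9.82 FPKM. ZNF862 was at 1.23, 8.09, 4.44 and 15.1 FPKM, highest in NPC. The neural stages differed in which gene was highest, while the low value in ESC was common to all 20 by the rule.

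By the mirrored rule, 5 members were lowest in NPC (2.15%, beside 4.16% of all symbols). They were ZNF215, ZNF423, ZNF195, ZNF239 and ZNF48. ZNF37A alone was lowest in R-NSCP6 (0.429%, beside 3.08%), and no member was lowest in R-NSCP1, where 0.369% of all symbols were.

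Between successive stages, the first step went upward for more members than downward. On FPKM + 1, R-NSCP1 exceeded ESC by at least 2-fold in 40 members (17.2%, beside 17.2% of all symbols) and fell short of it by as much in 10 (4.29%, beside 12.4%). From R-NSCP1 to R-NSCP6, 15 were higher (6.44%, beside 13%) and 28 lower (12%, beside 11.2%). From R-NSCP6 to NPC, 7 were higher (3%, beside 13.2%) and 25 lower (10.7%, beside 18.2%). Over the whole course from ESC to NPC, 27 were higher (11.6%, beside 20.9%) and 38 lower (16.3%, beside 22.2%). The share of members was at or slightly above that of all symbols upward into R-NSCP1 and downward into R-NSCP6, and below it in the other 6 counts. Dividing by the library total gave 142 higher and 3 lower for R-NSCP1 over ESC (60.9% and 1.29%, beside 46.8% and 4.19% of all symbols) and 3 and 87 for R-NSCP6 over R-NSCP1 (1.29% and 37.3%, beside 4.62% and 30.2%). It gave 30 and 9 for NPC over R-NSCP6 (12.9% and 3.86%, beside 25.8% and 8.94%) and 92 and 14 for NPC over ESC (39.5% and 6.01%, beside 41.4% and 8.85%).

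The medians of these differences were small. On log2(FPKM + 1) the median member differed by 0.31 from ESC to R-NSCP1, where the median symbol differed by 0.05. It differed by −0.21 from R-NSCP1 to R-NSCP6 and by −0.24 from R-NSCP6 to NPC, where the median symbol was at 0.00 and −0.17. From ESC to NPC the member median was 0.02 and that of all symbols −0.07. Upper-quartile scaling put the median of all symbols at 0.18 for R-NSCP1 over ESC and at −0.00344 for NPC over R-NSCP6, and library totals put it at 0.93 for R-NSCP1 over ESC. The distance between members and all symbols depended less on scaling. Over the 4 scalings it was 0.21 to 0.26 for R-NSCP1 over ESC, −0.21 to −0.19 for R-NSCP6 over R-NSCP1, −0.09 to −0.07 for NPC over R-NSCP6 and 0.05 to 0.13 for NPC over ESC.

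KRAB members and members without KRAB took different sizes of step. From ESC to R-NSCP1 the medians were 0.28 with KRAB and 0.52 without. In that step 14 KRAB members (10.4%) and 25 without KRAB (27.2%) were at least 2-fold higher, beside 17.2% of all symbols. From R-NSCP1 to R-NSCP6 the medians were −0.29 and −0.08. From R-NSCP6 to NPC they were −0.13 and −0.42. Here 9 KRAB members (6.67%) and 16 without KRAB (17.4%) were at least 2-fold lower, beside 18.2% of all symbols. The share without KRAB was thus near that of all symbols, and the KRAB share was below it. Over the whole course the medians were −0.11 and 0.20. The KRAB median was below the other in the first 2 steps and over the whole course and above it in the last step, with deposited values and under all 3 other scalings. The sign of the KRAB median from R-NSCP6 to NPC turned under all 3 other scalings and that from ESC to NPC under upper-quartile and library-total scaling.

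**Figure D4:**
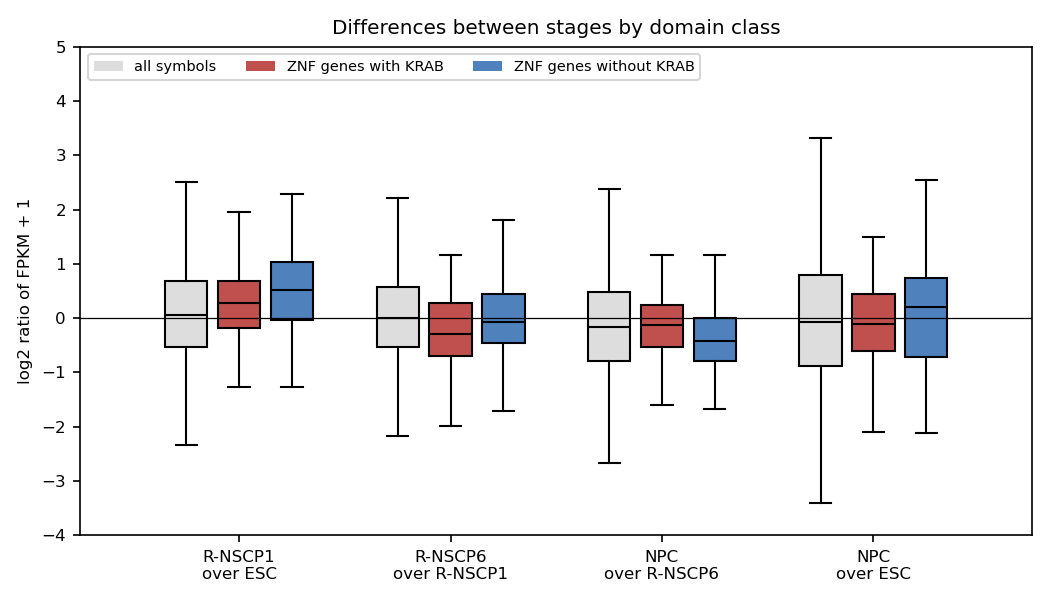
Difference between stages on log2(FPKM + 1) for all symbols (grey), the 135 ZNF genes with KRAB (red) and the 92 without (blue), in 4 pairs of stages. Boxes span the quartiles with the median as a line, whiskers reach the last value within 1.5 times the box height, and outlying genes are not drawn. The blue median is above the red one for R-NSCP1 over ESC (0.52 and 0.28) and below it for NPC over R-NSCP6 (−0.42 and −0.13).

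Of 19 members linked to neural development or its disorders, 11 had a row. R-NSCP1 exceeded ESC by 2-fold or more in 6 of the 11, beside 17.2% of all symbols and 27.2% of members without KRAB. The median difference of the 11 in that step was 1.14 on log2(FPKM + 1), beside 0.31 for all members and 0.52 for members without KRAB. With library-total scaling 60.9% of members and 46.8% of all symbols were 2-fold higher in this step, so such counts depend on scaling. ZNF503, a repressor of the NLZ family active in the mouse striatum, was at 0.0921, 31.0, 56.8 and 1.07 FPKM from ESC to NPC. This 616-fold distance between highest and lowest was the widest of the members not listed at 0. ZNF423, a partner of BMP-activated SMAD proteins that is needed for the mouse cerebellum, was at 11.4, 29.3, 30.8 and 3.29 FPKM, lowest in NPC. ZNF503 and ZNF423 were thus high in both R-NSC stages and low in NPC.

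NPC fell short of R-NSCP6 by 2-fold or more in 3 of the 11 (ZNF219, ZNF423 and ZNF503), beside 18.2% of all symbols. ZNF238, ZNF711 and ZNF462 differed less between these stages. ZNF238, the BTB repressor also named ZBTB18 that is required for mouse cortical neurons, was at 3.88, 12.4, 24.7 and 22.6 FPKM. ZNF711, a gene of X-linked intellectual disability, was at 9.21, 21.5, 19.7 and 19.2 FPKM. ZNF462, mutated in a human developmental disorder, was at 18.7, 17.3, 15.3 and 12.6 FPKM and was the highest of the 11 in ESC. ZNF219 has been given above. The rest, ZNF292, ZNF148, ZNF335, ZNF703 and ZNF41, had means of 2.86 to 8.48 FPKM. The neuron markers stood at higher sums in the neural stages, and their part in the result was not tested.

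Of 8 listed members linked to pluripotency, 7 had a row, 4 were highest in ESC, beside 32.5% of all symbols, and 2, ZNF281 and ZNF217, were prevalent there, beside 9.21%. The medians of the 7 were 13.5, 14.2, 9.04 and 6.46 FPKM from ESC to NPC. ZNF217, a human breast cancer oncogene found with CoREST and LSD1, was at 36.7, 16.0, 13.3 and 17.8 FPKM. ZNF143, a promoter-binding activator, was at 13.5, 14.4, 9.04 and 6.46 FPKM, and ZNF398 at 7.11, 3.41, 2.53 and 4.91 FPKM. ZNF322A was at 7.22, 14.2, 12.9 and 10.1 FPKM, lowest in ESC. ZNF296 was at 3.93, 1.13, 5.07 and 1.01 FPKM, with its highest value in R-NSCP6. For comparison, the ESC marker POU5F1 went from 1176 FPKM in ESC to 1.04 FPKM in R-NSCP1, whereas ZNF281 and ZNF217 kept 11.1 FPKM and 16.0 FPKM there.

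**Figure D5:**
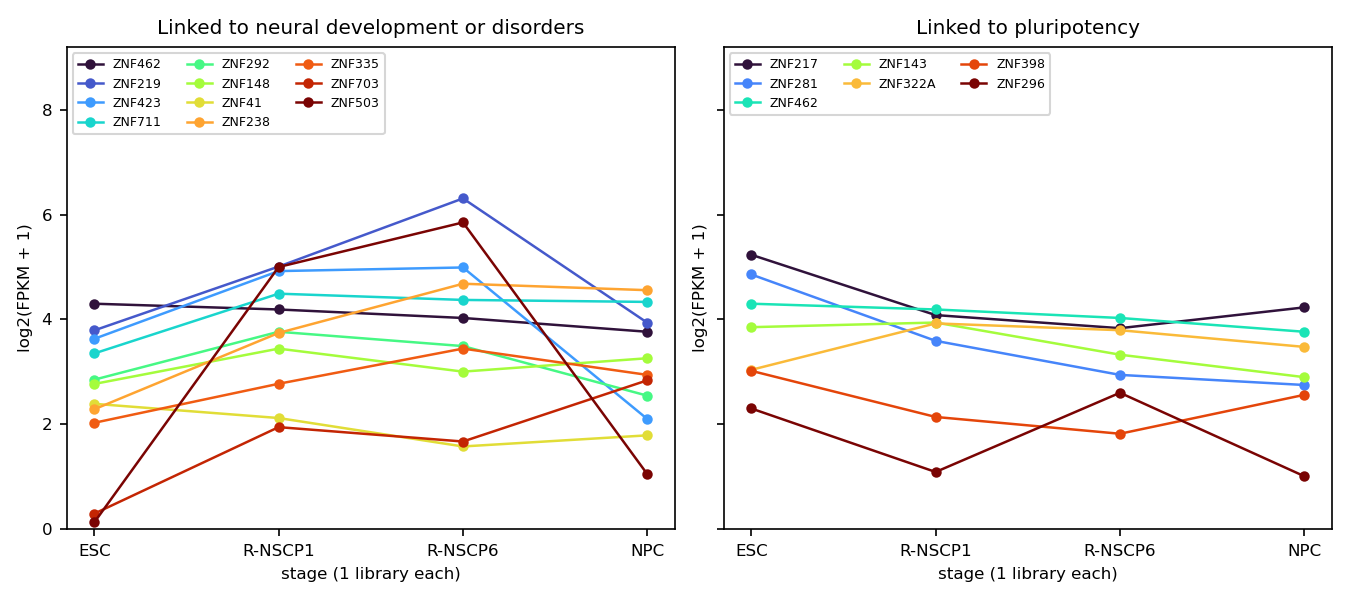
Level of 11 ZNF genes linked to neural development or disorders (left) and of 7 linked to pluripotency (right), on log2(FPKM + 1), by stage with 1 library each. Lines join the stages of a gene and are coloured by its order in ESC. ZNF503 has the widest range on the left, from 0.0921 FPKM in ESC to 56.8 FPKM in R-NSCP6, and ZNF217 and ZNF281 lead on the right in ESC at 36.7 FPKM and 28.02 FPKM.

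Among partners of co-repressor or chromatin complexes, 10 of 13 listed had a row, and 4 were highest in ESC, 3 and 2 in the R-NSC stages and 1 in NPC, where the shares of all symbols were 32.5%, 16.8%, 29.9% and 20.8%. ZNF687 was at 9.08, 10.3, 13.0 and 10.4 FPKM, nearly level. ZNF451, a SUMO ligase, was at 11.3, 9.65, 7.003 and 5.35 FPKM, and ZNF518A at 9.96, 7.25, 8.93 and 4.92 FPKM. ZNF451 and ZNF518A had their lowest values in NPC. ZNF592 alone was highest in NPC, at 4.16, 6.55, 5.70 and 8.86 FPKM.

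The 5 members with a row, of 9 listed for roles with RNA, ribosomes or the spindle, were all higher in R-NSCP6 than in NPC. Most symbols and most members without KRAB went the same way, as the negative medians given next show. The median difference of the 5 was −0.72 on log2(FPKM + 1), beside −0.24 for all members, −0.42 for members without KRAB and −0.17 for all symbols. With library-total scaling the median of all members in this pair was 0.27, so the size of this difference depends on scaling. ZNF638, an RNA-binding protein that also silences unintegrated DNA, was at 28.8, 23.7, 20.0 and 11.3 FPKM. ZNF622, which takes part in maturation of the large ribosomal subunit, was at 17.4, 13.9, 20.9 and 10.4 FPKM. ZNF346, which binds double-stranded RNA, was at 4.28, 10.6, 11.0 and 6.29 FPKM, and ZNF385A at 4.86, 8.65, 8.09 and 5.19 FPKM. ZNF326 has been given above. Apart from ZNF346 in the first step, none of the 5 differed 2-fold on FPKM + 1 between successive stages.

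The 6 promoter-binding factors with a row, of 7 listed, were expressed in every stage. ZNF384 was at 20.3, 25.0, 28.1 and 19.8 FPKM, and ZNF740 at 19.0, 26.3, 14.7 and 10.2 FPKM. ZNF263, a KRAB and SCAN gene, was at 6.47, 7.50, 14.2 and 6.68 FPKM, highest in R-NSCP6. ZNF148 was at 5.82, 9.88, 7.03 and 8.58 FPKM, lowest in ESC. ZNF281 alone of the 6 was prevalent in a stage.

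Of 19 listed genes for the machinery through which KRAB proteins act, 12 had a row, and none was highest in NPC, where 20.8% of all symbols were. TRIM28, the co-repressor bound by KRAB, was at 142, 96.4, 179 and 50.9 FPKM from ESC to NPC. SETDB1, which methylates histone H3, was at 23.5, 22.3, 18.3 and 12.2 FPKM. TRIM28 and SETDB1 were thus both lowest in NPC. CHD3, a subunit of the NuRD complex, was at 10.2, 45.1, 75.7 and 10.3 FPKM, and its paralog CHD4 at 79.8, 98.2, 85.1 and 64.7 FPKM. DNMT3B, which sets new DNA methylation, had 515, 16.3, 7.20 and 2.52 FPKM, below 3 FPKM in NPC, and was the only one of the 12 prevalent in a stage. DNMT1, which maintains DNA methylation, was at 40.5, 40.5, 32.2 and 21.3 FPKM, and its partner UHRF1 at 25.1, 35.2, 50.3 and 19.5 FPKM.

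Single members with a known place in this system were chosen after their values were seen. ZNF10, whose KRAB domain is widely used as a repressor in engineered proteins, was at 3.09, 4.75, 3.72 and 3.88 FPKM. ZNF274, which brings SETDB1 to other zinc finger genes in human cells, was at 11.6, 6.95, 6.08 and 6.49 FPKM, highest in ESC. ZNF445, which guards imprinted regions in mouse and human, was at 6.32, 16.2, 7.01 and 10.0 FPKM, highest in R-NSCP1. ZNF410, an activator of CHD4, was at 14.2, 19.4, 36.8 and 19.3 FPKM, highest in R-NSCP6 while CHD4 was highest in R-NSCP1.

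Several symbols stood for more than 1 row. There were 6 such members with 13 rows, ZNF146, ZNF160, ZNF208, ZNF48, ZNF561 and ZNF624. In all 6 the rows were identical in the 3 neural stages and differed in ESC, as in all 128 symbols of the table with more than 1 row, so the row of highest mean is the row of highest ESC level. ZNF160 was at 8.24 or 6.34 FPKM in ESC and at 10.4, 5.81 and 7.74 FPKM in the neural stages. ZNF48 was at 11.9 or 9.05 FPKM in ESC and at 8.33, 6.97 and 3.11 FPKM later. ZNF624 was at 1.88 or 0.897 FPKM in ESC and at 5.69, 2.60 and 3.53 FPKM later. The stage of highest level was the same by either row in ZNF160, ZNF48 and ZNF624, while in ZNF561 and ZNF208 the call of prevalence depended on the row. Near-identical pairs are uncertain for another reason, since their reads could be split between copies. ZNF33A was at 10.4, 9.98, 4.06 and 4.72 FPKM and ZNF33B at 8.35, 9.05, 3.25 and 4.86 FPKM.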

How the data were processed

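Poly-A mRNA of 4 stages, with 1 library each, was analysed; the 4 small RNA libraries were not used here. Paired-end reads had been mapped by the authors to MMUL_1.0 by TopHat (TopHat2 2.0.5 and Bowtie 0.12.8.0 in the submitters' processing notes) who deposited FPKM estimated with Cufflinks 2.0.2 for UCSC known genes. The study states the reads obtained per library, but read counts per gene were not used here, so no counting interval is given. How Cufflinks shared reads among similar ZNF genes was not tested.

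Members were matched by symbol, and the row of highest mean was kept per symbol. Without replicates no test was made. Members were counted by fixed rules of size (3 FPKM, 2-fold, pseudocount 1 on log2 values) beside the same share of all symbols. Members, rules and lists were chosen with earlier results of these data and the paper's supplementary tables known. Named genes were those prevalent in R-NSCP1 or NPC, the 6 and 8 of largest fold in ESC and R-NSCP6, the 6 most abundant, the 3 most even, up to 6 of highest mean per list, and symbols with several rows. Genes named beyond this were chosen after their values were seen. A planned search for KRAB, SCAN and finger motifs was not run, as no protein table was used here; domain classes of the human proteins were written by hand instead. The reference table served only for names and gene order.

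As alternatives, FPKM were scaled by upper quartile, by median of ratios or by library total, with other rows, minimum levels, folds and pseudocounts, and a mean of at least 5 FPKM also tried. The rule of prevalence was tested on simulated data. Python 3.11.15, numpy 2.4.6, pandas 2.3.3 and matplotlib 3.10.9 were used.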

Additional observations from a re-analysis of the deposited data

How the results depend on the processing

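No paired analysis was possible because each stage was 1 library. The limits are the same throughout: no spread between cultures, no read counts per gene, and FPKM totals that differ between libraries. Leaving out the symbols with several rows moved no count of members by over 1.5 times, a minimum of 1 FPKM none of the counts of prevalence or of members lowest in ESC, and counting members of unsure domain as KRAB none of the 4 counts of KRAB prevalence. The row of lowest mean raised KRAB prevalence in R-NSCP1 to 2. A looser KRAB motif was not run. The cause of the changes below was not tested, except that a mean of at least 5 FPKM leaves fewer members. Among the alternatives, shares of all symbols are given only for library-total scaling. The other counts below therefore show how the rules behave and not how members differ from all symbols.

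With upper-quartile scaling, prevalence in ESC was 9, of which 7 with KRAB, and 11 members were higher in NPC than in R-NSCP6. The medians for members, KRAB members and members without KRAB were then 0.43, 0.40 and 0.63 for R-NSCP1 over ESC, −0.34, −0.41 and −0.22 for R-NSCP6 over R-NSCP1, −0.0816, 0.0251 and −0.26 for NPC over R-NSCP6, and 0.19, 0.0189 and 0.36 for NPC over ESC. With median-of-ratios scaling, prevalence in R-NSCP1 was 1 (KRAB 0, without KRAB 1), KRAB prevalence in NPC was 2, 11 members were higher in NPC than in R-NSCP6, and the medians of that pair were −0.10, 0.00068 and −0.28.

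With library-total scaling, prevalence from ESC to R-NSCP6 was 3, 16 and 1 (KRAB 3, 6 and 0, without KRAB 0, 10 and 1), 56 members were lowest in ESC and 5 stepped down throughout. Members 2-fold higher and lower were 142 and 3 for R-NSCP1 over ESC, 3 and 87 for R-NSCP6 over R-NSCP1, 30 and 9 for NPC over R-NSCP6 and 92 and 14 for NPC over ESC. The 3 medians were 1.15, 1.10 and 1.35, then −0.77, −0.84 and −0.70, then 0.27, 0.35 and 0.12, and 0.80, 0.63 and 1.05 in the same order of pairs.

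A minimum of 10 FPKM left 9 prevalent in ESC (KRAB 6), 8 in R-NSCP6 (KRAB 0), none with KRAB in R-NSCP1 (0), 0 in NPC (0 in either class), and 5 lowest in ESC. A fold of 1.5 gave 17, 28 and 6 from R-NSCP1 to NPC, with KRAB counts of 17, 9, 11 and 3 from ESC to NPC, counts without KRAB of 8 and 17 in the R-NSC stages, and 32 lowest in ESC. A fold of 4 gave 3, 0, 0 and 1 from ESC to NPC, with KRAB 3, 0, 0 and 0 and without KRAB 0, 0, 0 and 1, and 4 lowest in ESC.

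With a pseudocount of 0.1, 16 members were lower in R-NSCP1 than in ESC, 12 higher and 44 lower in NPC than in R-NSCP6, and the median without KRAB for R-NSCP1 over ESC was 0.64. With a pseudocount of 3, 18 stood higher in R-NSCP1 than ESC, 7 higher and 12 lower in R-NSCP6 than in R-NSCP1, 4 and 13 in NPC than in R-NSCP6, and 12 and 23 in NPC than in ESC, and the medians without KRAB were 0.39 for R-NSCP1 over ESC and −0.31 for NPC over R-NSCP6. Among members of at least 5 FPKM, higher and lower counts were 22 and 6, 7 and 15, 3 and 15, and 13 and 23 in the order of pairs above, and the medians for NPC over ESC were −0.0899 for members and 0.0996 without KRAB.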

Other observations

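ZNF genes often lie side by side in the genome. Among the genes of the rhesus reference table, 15 runs of at least 2 consecutive ZNF members held 34 members. In 3 of the runs every member had its highest level in the same stage. How often members that are not neighbours share their highest stage was not counted, so no likeness of neighbours is read from this. ZNF560 and its neighbour ZNF426 were both highest in ESC, ZNF560 at 11.97 FPKM and ZNF426 at 13.8 FPKM, but ZNF426 still read 11.6 FPKM in R-NSCP1 where ZNF560 read 1.15 FPKM. ZNF732 and ZNF141 were both highest in ESC, at 3.23 FPKM and 14.5 FPKM, and lower at each later stage. ZNF19 and ZNF23 were both highest in R-NSCP6, at 5.74 FPKM and 13.7 FPKM. ZNF229, the gene most restricted to ESC, has ZNF180 beside it, whose highest stage was R-NSCP6. In the run of ZNF605, ZNF26, ZNF84 and ZNF140, the longest one, the 4 genes differed from ESC to NPC by −0.56 to −0.09 on log2(FPKM + 1). The table is of a later assembly than the reads were mapped to, and neighbours may share reads where their sequences are alike.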
